A study of Mus musculus with 9 samples.

Results

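The genes described here are 42 interferon-stimulated genes, taken as a list of gene symbols from the transcriptomes of splenic myeloid-derived suppressor cells (MDSCs) of mice bearing spindle cell tumours (SCTs). The list names classical targets of type I interferon by symbol. All 42 symbols were found among the 23284 gene symbols of each sample, and all 42 passed the filter on low values in both comparisons.

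Interferons are secreted signals of antiviral and inflammatory immunity. Type I interferons bind the receptor made of IFNAR1 and IFNAR2, whose kinases JAK1 and TYK2 phosphorylate STAT2. STAT2 and IRF9 are part of the complex ISGF3, which binds the interferon-stimulated response element (ISRE) in the promoters of its targets. IRF7, itself a target, drives further interferon production, and USP18, another target, dampens signalling at the receptor. Interferon-γ signals through IFNGR1, IFNGR2, JAK1 and JAK2 to a different element, the GAS site. Myeloid cells carry part of this programme without infection, and it can rise further on exposure to interferon or nucleic acids.

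There were 9 samples in 3 groups of 3. WT mice gave polymorphonuclear MDSCs (PMN-MDSCs, the neutrophil-like subset) and monocytic MDSCs (Mo-MDSCs), and the last group was Mo-MDSCs of mice lacking both p16 (Cdkn2a) and p21 (Cdkn1a) from the germline (p16/p21-DKO, here DKO). The labels give the strain as C57BL/6J for WT and C57BL/6 for DKO mice. All mice carried subcutaneous SCT cells, a line derived by the study from a carcinogen-treated p16-deficient mouse, so that no tumour-free mouse is among the samples. A magnetic isolation kit took Ly6G+ cells as PMN-MDSCs and the remaining Gr-1+ cells as Mo-MDSCs, 3 weeks after inoculation. The age on every label is 3 weeks, whereas the methods give mice older than that at inoculation. Whether a sample is 1 mouse or a pool is not stated, and the p-values below measure the spread between these samples, which may be technical. PMN-MDSCs of DKO mice were not analysed here. By the library numbers in the labels, replicate 1 of each group was numbered apart from replicates 2 and 3.

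The values are FPKM, fragments scaled to transcript length and library, for which no read counts were used here, so the depth in reads is unknown. The number of genes with at least 1 FPKM was between 11299 and 11418, and the upper quartile between 22.0 and 24.5 FPKM. The targeted genes did not check the labels. Cdkn1a stood at 8.18, 6.46 and 8.04 FPKM in WT Mo-MDSCs and at 5.55, 8.52 and 6.00 FPKM in the samples labelled DKO, and Cdkn2a was low in all samples, between 0 and 1.47 FPKM. A value per gene also counts transcript from outside a deleted stretch, whose extent is not given in the sources used here. Every direction given for DKO below is therefore a direction of the samples labelled DKO.

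Markers were compared with the labelled cell types before the members. Ccr2 (281 to 362 FPKM in WT Mo-MDSCs, 2.36 to 2.51 in PMN-MDSCs) and F13a1 separated Mo- from PMN-MDSCs, and Retnlg and Cxcr2 (from 590.4 to 875 FPKM in PMN-MDSCs, from 6.87 to 18.6 in WT Mo-MDSCs) did so in the other direction. Other markers crossed the labels. Csf1r was between 674 and 919 FPKM in every sample, and 4 B cell markers summed to between 969 and 1568 FPKM. For 6 red pulp macrophage markers the sum ranged from 5418 to 6441 FPKM in PMN-MDSCs, from 3368 to 4328 among WT Mo-MDSCs and from 3596 to 5546 among the DKO samples. Granule and other neutrophil markers (7 of 8 found) ranged in sum from 9753 to 27563 FPKM in PMN-MDSCs, from 4431 to 13953 among WT Mo-MDSCs and from 1967 to 4203 among the DKO samples. Erythroid markers summed to between 1232 and 2888 FPKM. T and NK cell markers were near 0, at sums of 3.41 to 9.62 and 1.92 to 5.01 FPKM, and 6 markers of plasmacytoid dendritic cells, potent producers of type I interferon, summed to 29.3 to 54.8 FPKM, mostly from Tcf4 and Cox6a2, while Siglech was at 0.792 FPKM or less. The part of these other cells in the results below was not tested, and in bulk samples fewer cells of a type and less RNA per cell cannot be told apart.

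Promoter stretches of 9 members are shown first. These 9 were taken from the members with an ISRE match, and share that motif while their calls between the cells differ. The stretches come from the RefSeq promoter windows of mouse assembly GRCm38.p6, which run from 250 bases before to 50 bases after each start. Of the 42 members, 32 were in that table. The 10 others were Dhx58, Zbp1, Oas2, Usp18, Mx1, Mx2, Iigp1, Parp9, Parp14 and Rtp4. Each stretch is written 5′ to 3′ along the strand of the gene and lies upstream of the RefSeq start. The ISRE core, searched on both strands as the 4 letters GAAA, any 2 bases, and GAAA again, is in capitals, and appears as TTTC, 2 bases, TTTC where it lies on the opposite strand. Overlapping matches are joined into 1 run of capitals. The first 5 belong to members that were lower in Mo- than in PMN-MDSCs, the next 2 to members that were higher, and the last 2 to members with no call.
Isg15, chr4:156200855-156200916, minus strand: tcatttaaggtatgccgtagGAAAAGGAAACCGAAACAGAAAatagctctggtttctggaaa
Ifit1, chr19:34640765-34640833, plus strand: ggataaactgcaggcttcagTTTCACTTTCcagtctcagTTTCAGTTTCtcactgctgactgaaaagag
Oas3, chr5:120777705-120777754, minus strand: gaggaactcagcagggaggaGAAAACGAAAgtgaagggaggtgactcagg
Rsad2, chr12:26456543-26456592, minus strand: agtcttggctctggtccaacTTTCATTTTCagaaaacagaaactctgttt
Gbp2, chr3:142620584-142620633, plus strand: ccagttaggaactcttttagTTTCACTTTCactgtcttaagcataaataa
Stat2, chr10:128270256-128270305, plus strand: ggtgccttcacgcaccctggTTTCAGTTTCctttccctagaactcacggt
Oas1a, chr5:120907526-120907565, minus strand: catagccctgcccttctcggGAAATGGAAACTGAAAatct
Bst2, chr8:71537567-71537622, minus strand: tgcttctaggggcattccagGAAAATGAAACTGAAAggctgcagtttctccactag
Irgm1, chr11:48871421-48871470, minus strand: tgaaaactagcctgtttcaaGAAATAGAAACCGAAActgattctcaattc

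The Isg15 stretch holds 3 overlapping matches, starting between 78 and 66 bases before the start of transcription, and those of Ifit1, Oas1a, Bst2 and Irgm1 hold 2 each. The Oas1a stretch lies upstream of the start used for its window but overlaps the first bases of the gene in the RefSeq gene table of the same assembly, and the other 8 lie outside the gene in that table. Of the 32 members in the table, 19 held an ISRE match in a window, against 3.99% of all 27025 genes. By their call in WT Mo- against PMN-MDSCs (below), the match was in 11 of 16 lower members, 4 of 5 higher members and 4 of 11 members without a call. Thus Oas3 and Oas1a, or Gbp2 and Stat2, carried the same motif and differed in opposite directions. The GAS core, TTC, 3 bases of any kind, and GAA, was found in 8 of the 32, against 9.55% of all genes. A match is a run of letters and not a measured binding site, and none of these samples measured binding.

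The members were abundant as a group. In PMN-MDSCs 37 of 42 had a mean of at least 10 FPKM, against 38 in WT Mo-MDSCs and 39 in the DKO samples. The share of all genes at that level was not counted. The median of the members' means was 38.0, 33.8 and 31.0 FPKM in these groups. The upper quartile of all genes above 0 was 22.0 to 24.5 FPKM. The transmembrane proteins of the IFITM family, which restrict the entry of viruses, stood far above the rest. Ifitm2 was the highest member in PMN-MDSCs (1942 ± 618 FPKM, SD, n = 3) and Ifitm3 the highest in WT (1164 ± 187) and DKO-labelled (761 ± 143) Mo-MDSCs. The 3 most abundant members made up 67.6%, 58.7% and 51.4% of the summed FPKM of all members in these groups. At the low end were Mx2 in PMN-MDSCs (2.18 ± 0.271 FPKM) and Ifi44 in both Mo-MDSC groups.

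The mean level of all members, as log2(FPKM + 0.1), by replicate from 1 to 3, was 5.41, 5.28 and 5.51 for PMN-MDSCs, 5.11, 4.91 and 5.09 for WT Mo-MDSCs, and 5.03, 5.07 and 4.81 for the DKO samples. Every PMN-MDSC sample lay above every Mo-MDSC sample, and the ranges of the WT and DKO-labelled Mo-MDSCs overlapped. Group means were 5.40 ± 0.116 (SD, n = 3), 5.04 ± 0.111 and 4.97 ± 0.142. Within a group the lowest or highest value of many members fell in the same sample. WT Mo-MDSC replicate 2 was the lowest of its group in 34 of 42 members, DKO replicate 3 in 34, and PMN-MDSC replicate 2 in 28, while PMN-MDSC replicate 3 was the highest of its group in 29. In WT Mo-MDSC and PMN-MDSC replicate 2 the summed neutrophil markers were the lowest of the group, at 4431 and 9753 FPKM, and the erythroid markers the highest, at 2779 and 2888 FPKM. DKO replicate 3 had the lowest neutrophil and monocyte sums of its group, at 1967 and 1953 FPKM. The upper quartile of all genes above 0 was also the lowest of its group in WT Mo-MDSC replicate 2 (22.49 FPKM) and PMN-MDSC replicate 2 (23.02). It was lowest by little in DKO replicate 3 (22.02, beside 22.06 in replicate 1), and PMN-MDSC replicate 3 had the highest (24.49). The same counts were not made over all genes, so the pattern may not be particular to the members.

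**Figure D1:**
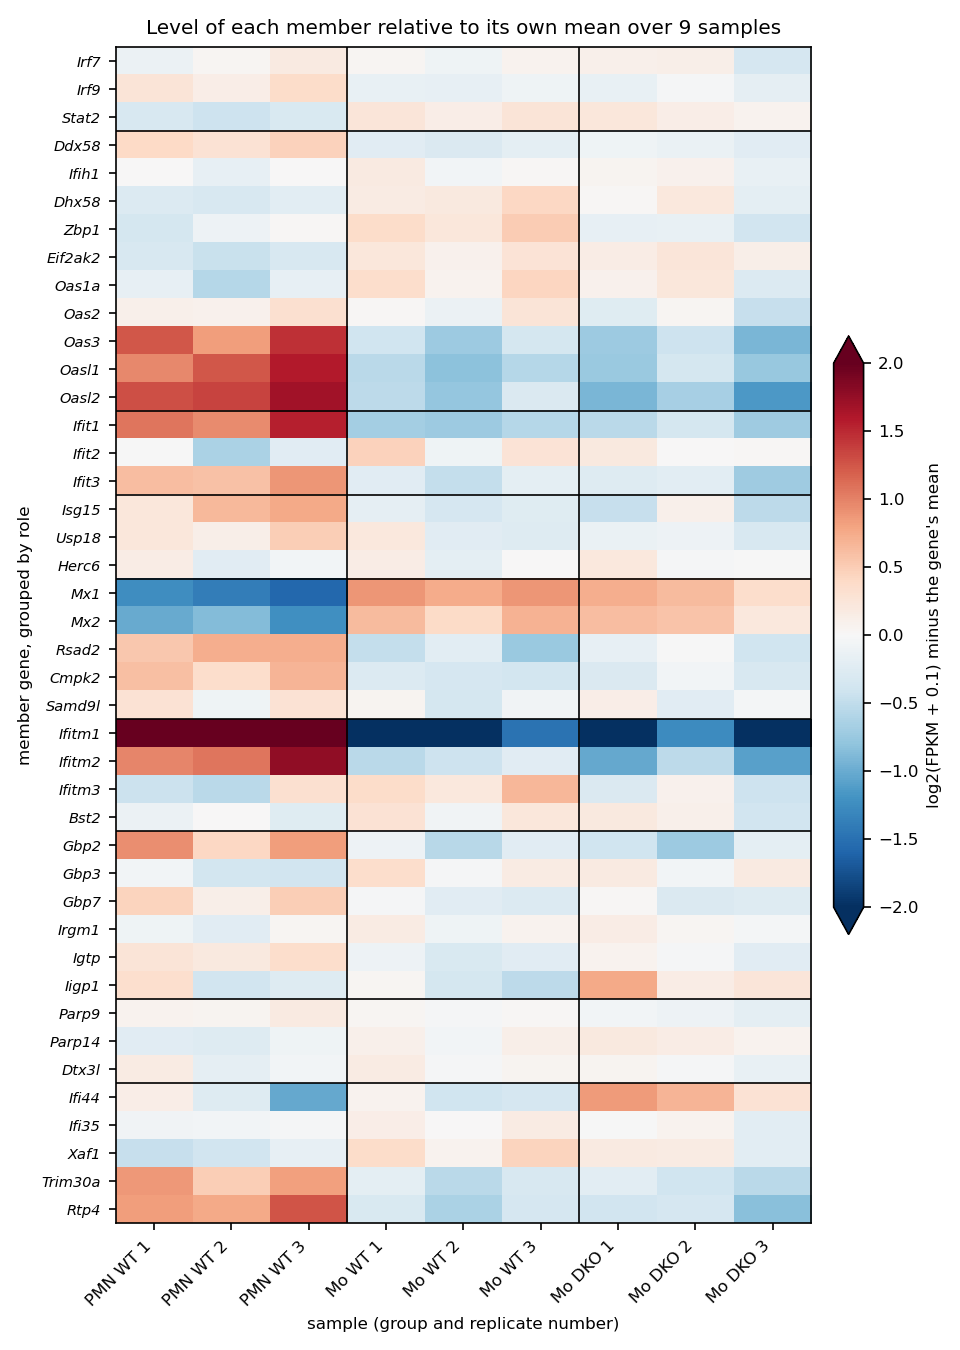
Level of each of the 42 members in each of the 9 samples, as log2(FPKM + 0.1) minus the gene's mean over the samples (colour, cut at -2 and 2), with members in rows grouped by role and samples in columns. Ifitm1, Ifitm2, Ifit1, Oas3, Oasl1 and Oasl2 are high in the 3 PMN-MDSC columns, Mx1 and Mx2 in the 6 Mo-MDSC columns, and no member was called between the WT and DKO-labelled Mo-MDSC columns.

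The comparison of WT Mo-MDSCs with WT PMN-MDSCs asked how the programme differs between the 2 subsets of MDSCs. It differed in both directions rather than as a unit. With limma over 11491 genes and Benjamini-Hochberg adjusted p under 0.05, 9 members were higher in Mo-MDSCs, 17 were lower (that is, higher in PMN-MDSCs) and 16 had no call. Of all genes tested, 18.5% were called higher and 20.6% lower, so that the share of members called lower (40.5%) was above the background and the share called higher (21.4%) was near it. Log2 differences (Mo minus PMN, on the log2(FPKM + 0.1) scale) ran from -6.00 for Ifitm1 to 2.24 for Mx1. Their median was -0.10, beside 0.01 over all genes, and it was 0.02 after quantile normalization. The median size of a member's difference, whatever its sign, was 0.54, beside 0.29 over all genes. After quantile normalization 15 members (35.7%) were higher and 16 (38.1%) lower, beside 22.1% and 17.8% of all genes, so that the higher share too was then above the background. With replicates 2 and 3 alone 6 members were higher and 15 lower, beside 11.1% and 14.6% of all genes. Under a fit that blocks on replicate number 13 were higher and 18 lower, beside 27.6% and 29.7% of all genes.

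**Figure D2:**
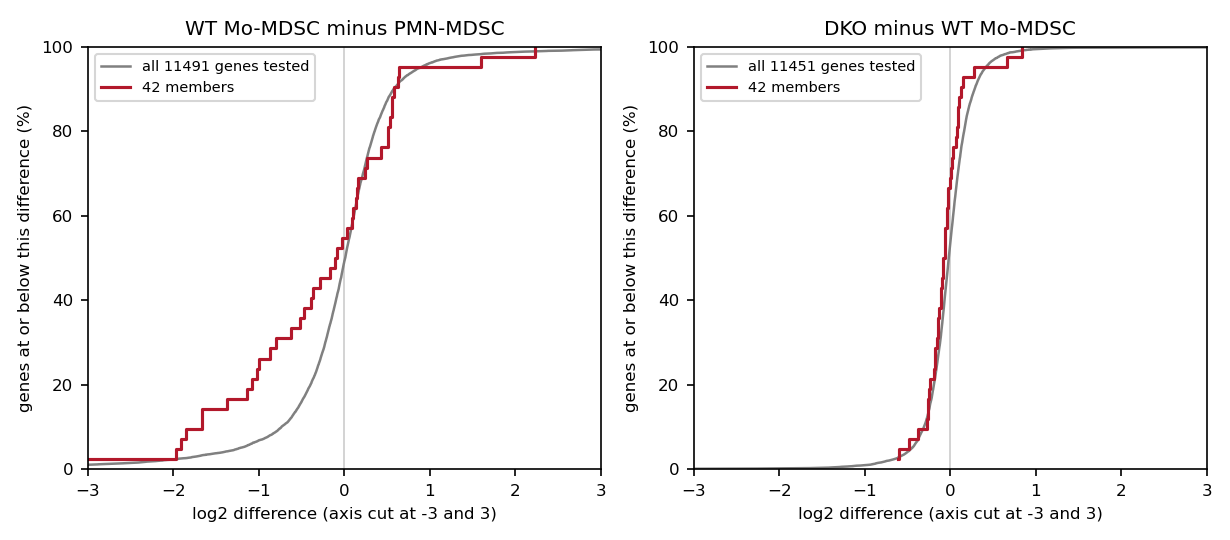
Cumulative share of genes (vertical axis, %) at or below a given log2 difference (horizontal axis, cut at -3 and 3) for the 42 members (red steps) and all genes tested (grey line), for WT Mo- minus PMN-MDSCs (left) and DKO-labelled minus WT Mo-MDSCs (right). On the left the members spread more widely than all genes, with 10 below -1 and 2 above 1. On the right they lie within -0.62 and 0.84.

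Among the transcription factors, the components of ISGF3 moved apart. Irf9, its DNA-binding subunit, was at 73.4, 67.7 and 79.5 FPKM in PMN-MDSCs (replicates 1, 2 and 3, here and below), at 55.6, 54.9 and 57.9 FPKM in WT Mo-MDSCs, and at 55.7, 60.5 and 54.7 FPKM in the DKO samples. Stat2, which brings the activation domain, was at 34.3, 32.1 and 34.8 FPKM in PMN-MDSCs, at 50.4, 46.8 and 51.2 FPKM in WT Mo-MDSCs, and at 49.9, 47.1 and 44.9 FPKM in the DKO samples. The PMN- and Mo-MDSC ranges did not overlap for either gene. Irf9 was 1.31-fold lower in WT Mo- than in PMN-MDSCs (log2 difference -0.39 ± 0.0809, SE, adjusted p = 0.00879), and this call was lost with replicates 2 and 3 alone and after quantile normalization. Stat2 was 1.47-fold higher (0.55 ± 0.0735, adjusted p = 0.00127). Irf7, the master regulator of type I interferon genes, was at 121, 134 and 149 FPKM in PMN-MDSCs, at 134, 123 and 137 FPKM in WT Mo-MDSCs, and at 140.3, 142 and 103 FPKM in the DKO samples. These ranges overlapped, and the difference between WT Mo- and PMN-MDSCs was -0.03 (95% confidence interval -0.26 to 0.20, adjusted p = 0.821). It became 0.32 with an adjusted p = 0.0114 after quantile normalization.

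The 10 sensors and effectors of nucleic acid sensing were split evenly, with 4 higher in WT Mo-MDSCs, 4 lower and 2 without a call. The helicases that detect viral RNA in the cytosol went different ways. Ddx58, which encodes RIG-I, was at 41.3, 38.0 and 43.2 FPKM in PMN-MDSCs, at 26.5, 25.6 and 27.3 FPKM in WT Mo-MDSCs, and at 29.4, 28.3 and 26.8 FPKM in the DKO samples. Ifih1, which encodes MDA5, was at 18.7, 16.7 and 18.9 FPKM, at 21.2, 18.03 and 19.1 FPKM, and at 19.3, 19.8 and 16.8 FPKM in the same order. Dhx58, which encodes LGP2, a helicase without a signalling domain, was at 28.2, 27.3 and 29.4 FPKM, at 38.4, 39.1 and 45.6 FPKM, and at 34.9, 39.6 and 29.9 FPKM. Ddx58 was thus lower in every WT Mo-MDSC sample than in any PMN-MDSC sample, Dhx58 higher in every one, and Ifih1 overlapped. Ddx58 fell by 0.62 ± 0.0771 on the log2 scale (adjusted p = 9.26e-04), Dhx58 rose by 0.53 ± 0.0886 (adjusted p = 0.00336), and Ifih1 differed by 0.10 ± 0.0928 (adjusted p = 0.425).

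Eif2ak2 and Zbp1 were higher in Mo-MDSCs. Eif2ak2 encodes PKR, the kinase that halts translation on double-stranded RNA, and was at 18.02, 16.4 and 18.04 FPKM in PMN-MDSCs, at 26.3, 24.0 and 27.1 FPKM in WT Mo-MDSCs, and at 24.9, 26.7 and 24.4 FPKM in the DKO samples. Zbp1, a sensor of Z-form nucleic acids that can trigger necroptosis, was at 44.4, 52.8 and 57.6 FPKM in PMN-MDSCs, at 73.3, 66.1 and 80.4 FPKM in WT Mo-MDSCs, and at 50.5, 51.0 and 43.4 FPKM in the DKO samples. Neither gene's PMN- and WT Mo-MDSC ranges overlapped. The log2 differences were 0.56 ± 0.0823 (adjusted p = 0.002) and 0.51 ± 0.119 (adjusted p = 0.014), and the call of Zbp1 was lost with replicates 2 and 3 alone and without WT Mo-MDSC replicate 3.

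The 2′-5′ oligoadenylate synthetase family held opposite differences within 1 gene cluster. OAS proteins sense double-stranded RNA and make the messenger that activates RNase L, and Oasl1 and Oasl2 are related OAS-like genes. Oasl2 was at 185, 194 and 243 FPKM in PMN-MDSCs, at 52.6, 44.2 and 62.2 FPKM in WT Mo-MDSCs, and at 40.0, 47.6 and 34.1 FPKM in the DKO samples. Oasl1, known in mice as a brake on the translation of Irf7, was at 31.9, 38.9 and 49.1 FPKM, at 11.2, 9.19 and 11.0 FPKM, and at 9.78, 12.7 and 9.66 FPKM in the same order. Oas3 was at 105, 79.3 and 122 FPKM, at 33.7, 26.7 and 34.9 FPKM, and at 26.9, 33.4 and 23.5 FPKM. All 3 were higher in every PMN-MDSC sample than in any Mo-MDSC sample, by 3.92-fold for Oasl2 (95% confidence interval 3.05 to 5.04, adjusted p = 1.12e-04), 3.75-fold for Oasl1 (2.87 to 4.90, adjusted p = 1.67e-04) and 3.18-fold for Oas3 (2.39 to 4.24, adjusted p = 4.36e-04). Oas1a went the other way, with means of 24.9 ± 3.83 FPKM in PMN- and 37.2 ± 4.56 in WT Mo-MDSCs (log2 difference 0.58 ± 0.142, adjusted p = 0.0169), although this call was lost with replicates 2 and 3 alone, without WT Mo-MDSC replicate 1 and without replicate 3. Oas2, which the RefSeq gene table places 3211 bases from Oas3 on chromosome 5, had no call, at 41.3 ± 3.81 and 38.3 ± 5.28 FPKM (log2 difference -0.11, positive at 0.06 after quantile normalization). Oas1a has near copies such as Oas1g, and reads shared between them may have been divided in the deposited values.

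The IFIT proteins bind viral RNA without self markers and block its translation, and their genes lie side by side on chromosome 19. Ifit1 was at 26.1, 23.8 and 36.6 FPKM in PMN-MDSCs, at 7.70, 7.43 and 8.26 FPKM in WT Mo-MDSCs, and at 8.46, 9.64 and 7.49 FPKM in the DKO samples. Ifit3 was at 44.6, 43.6 and 53.8 FPKM, at 24.7, 20.8 and 25.5 FPKM, and at 24.3, 25.1 and 17.7 FPKM in the same order. Ifit2 was at 11.7, 7.52 and 10 FPKM, at 16.2, 11.1 and 14.2 FPKM, and at 13.5, 11.7 and 11.9 FPKM. Ifit1 and Ifit3 were therefore higher in all PMN-MDSC samples, whereas Ifit2 overlapped and its mean was higher in Mo-MDSCs. Ifit1 was 3.602-fold lower in WT Mo- than in PMN-MDSCs (2.77 to 4.68, adjusted p = 1.71e-04) and Ifit3 2.00-fold lower (1.65 to 2.42, adjusted p = 7.31e-04). Ifit2 differed by 0.51 ± 0.196 on the log2 scale (adjusted p = 0.0798, and 8.29e-04 with the replicate block). Ifit2 was also called with all 9 samples in 1 fit and without PMN-MDSC replicate 1 or WT Mo-MDSC replicate 2. Ifit2 and Ifit3 are 6584 bases apart. Ifit3 has a near-identical copy, Ifit3b, with which reads may be shared.

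In the ISG15 system, 1 of 3 members was called. Isg15, the ubiquitin-like modifier that is among the most strongly induced interferon targets, was at 84.5, 113 and 122 FPKM in PMN-MDSCs, at 63.6, 57.1 and 61.2 FPKM in WT Mo-MDSCs, and at 52.5, 77.7 and 50.05 FPKM in the DKO samples. Usp18, the protease that removes ISG15 and restrains the receptor, was at 18.7, 17.3 and 22.4 FPKM, at 18.5, 13.6 and 13.3 FPKM, and at 14.5, 14.9 and 12.8 FPKM in the same order. Isg15 was higher in every PMN-MDSC than in any Mo-MDSC sample, while for Usp18 replicate 1 of WT Mo-MDSCs reached into the PMN-MDSC range. Isg15 was 1.73-fold lower in WT Mo-MDSCs (1.38 to 2.18, adjusted p = 0.00426). Usp18 differed by -0.37 ± 0.155 (adjusted p = 0.0994), and was called lower without WT Mo-MDSC replicate 1 (-0.52, adjusted p = 0.0263). Herc6, the ligase that attaches ISG15 in mice, was at 10.2 ± 1.33 and 10.4 ± 1.23 FPKM, with no call (log2 difference 0.03, and -0.00219 after quantile normalization).

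The Mx proteins were the members with the largest rise in Mo-MDSCs. They are dynamin-like GTPases that trap viral nucleocapsids. In C57BL/6 mice the Mx genes carry inactivating mutations, so that the transcripts measured here need not give a working protein. Mx1 was at 7.06, 6.43 and 5.62 FPKM in PMN-MDSCs, at 31.1, 28.3 and 31.4 FPKM in WT Mo-MDSCs, and at 28.0, 26.3 and 21.5 FPKM in the DKO samples. Mx2 was at 2.21, 2.43 and 1.90 FPKM, at 7.08, 5.97 and 7.41 FPKM, and at 7.04, 6.80 and 5.26 FPKM in the same order. Both genes were higher in each of the 6 Mo-MDSC samples than in any PMN-MDSC sample, with Mx1 4.71-fold (3.97 to 5.58, adjusted p = 1.61e-05) and Mx2 3.04-fold (2.41 to 3.82, adjusted p = 1.85e-04) higher in WT Mo- than in PMN-MDSCs.

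The neighbouring pair Rsad2 and Cmpk2 on chromosome 12 went with Isg15 instead. Rsad2 encodes viperin, which makes a chain-terminating nucleotide, and Cmpk2 encodes a nucleotide kinase. Rsad2 fell from a PMN-MDSC mean of 64.5 ± 4.63 FPKM to 29.5 ± 5.44 in WT Mo-MDSCs (log2 difference -1.14 ± 0.138, adjusted p = 8.45e-04), and Cmpk2 from 30.2 ± 3.40 to 16.4 ± 0.515 FPKM (-0.87 ± 0.0980, adjusted p = 6.09e-04). Samd9l, an inhibitor of poxvirus replication, was at 66.2 ± 9.37 and 54.3 ± 7.68 FPKM and had no call (-0.29, adjusted p = 0.156, and 0.00324 with the replicate block).

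The membrane restriction factors showed the widest spread of any role. Ifitm1 was at 1182, 891 and 1828 FPKM in PMN-MDSCs, at 14.8, 18.5 and 26.6 FPKM in WT Mo-MDSCs, and at 12.5, 31.3 and 12.7 FPKM in the DKO samples. Ifitm2 was at 1531, 1642 and 2653 FPKM, at 538, 583 and 664 FPKM, and at 384, 544 and 366 FPKM in the same order. Ifitm3 was at 641, 599 and 1081 FPKM, at 1115, 1007 and 1371 FPKM, and at 712, 922 and 649 FPKM. So the 3 neighbours on chromosome 7 differed from each other. Ifitm1 was far higher in PMN-MDSCs, Ifitm2 higher there by less, and Ifitm3 had its highest mean in WT Mo-MDSCs. In order of position, Ifitm2, Ifitm1 and Ifitm3, these differences formed no gradient. Ifitm1 was 63.8-fold lower in WT Mo- than in PMN-MDSCs (39.1 to 104, adjusted p = 2.08e-05) and Ifitm2 3.18-fold lower (2.24 to 4.51, adjusted p = 0.00109). Ifitm3 was 1.55-fold higher in WT Mo-MDSCs (1.05 to 2.29, adjusted p = 0.0754, and 0.00278 with the replicate block), with PMN-MDSC replicate 3 inside the Mo-MDSC range. Without that sample the adjusted p of Ifitm3 was 0.00712, and after quantile normalization 0.0074 (log2 difference 1.02).

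The 7 neutrophil markers were lower in WT Mo- than in PMN-MDSCs by 1.32-fold (Camp) to 277-fold (Stfa2l1), with Cxcr2 at 64.1-fold, and 4 of the 7 were called, Camp, Ltf and Ngp not. Within Mo-MDSCs, Ifitm1 was highest in WT replicate 3 and DKO replicate 2, which also had the highest summed neutrophil markers of their groups, at 13953 and 4203 FPKM. The part of neutrophil RNA in the Ifitm1 level of Mo-MDSCs was not tested. Bst2, or tetherin, which holds budding virus at the cell surface, was at 107, 116 and 97.2 FPKM in PMN-MDSCs, at 141, 109.9 and 135 FPKM in WT Mo-MDSCs, and at 132, 124 and 88.7 FPKM in the DKO samples. Its ranges overlapped in both comparisons, and it differed by 0.26 ± 0.118 between WT Mo- and PMN-MDSCs (adjusted p = 0.118). Bst2 was called higher after quantile normalization (0.59, adjusted p = 0.0086) and without WT Mo-MDSC replicate 2 (0.37, adjusted p = 0.0382).

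**Figure D3:**
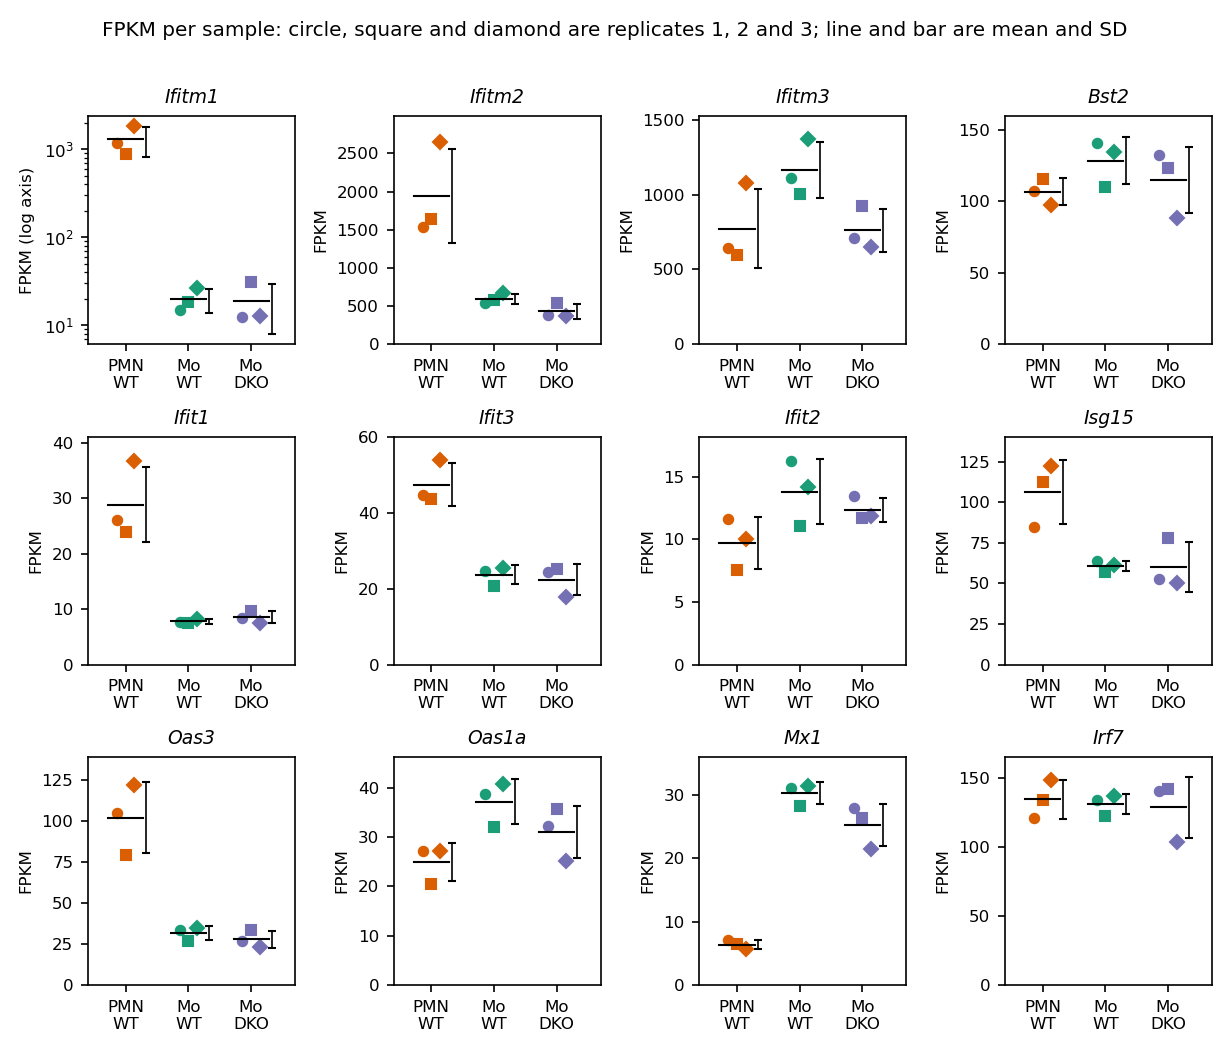
FPKM in each sample (vertical axis, logarithmic for Ifitm1 alone and from 0 in the others) of 12 members, with circles, squares and diamonds for replicates 1, 2 and 3, a line at the group mean and a bar of 1 SD. Ifitm1 and Ifitm2 lie above the Mo-MDSC samples in all 3 PMN-MDSC samples and Mx1 below them in all 3, and Irf7 overlaps between all groups.

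The interferon-inducible GTPases, which attack the vacuoles of intracellular pathogens and are driven by interferon-γ as much as by type I interferon, had 1 higher member, 3 lower and 2 without a call. Gbp2 was at 79.7, 55.5 and 74.2 FPKM in PMN-MDSCs, at 38.9, 28.2 and 35.6 FPKM in WT Mo-MDSCs, and at 31.7, 25.1 and 36.3 FPKM in the DKO samples. Irgm1, a regulator that guards host membranes, was at 49.2, 44.8 and 53.7 FPKM, at 58.6, 49.4 and 55.1 FPKM, and at 58.0, 54.2 and 51.3 FPKM in the same order. Gbp2 was 2.03-fold lower in WT Mo-MDSCs (1.54 to 2.68, adjusted p = 0.0033), with no overlap. Irgm1 overlapped between the subsets (0.14 ± 0.0995, adjusted p = 0.297), and was called higher after quantile normalization (0.35, adjusted p = 0.0123). The guanylate-binding protein genes of chromosome 3 did not move together, since Gbp7 was lower (means 20.7 ± 2.83 in PMN- and 14.4 ± 1.30 FPKM in WT Mo-MDSCs, adjusted p = 0.0145) and Gbp3, 9864 bases away, was higher (25.4 ± 3.45 and 34.2 ± 4.495 FPKM, adjusted p = 0.0377). The call of Gbp7 was lost with replicates 2 and 3 alone, without PMN-MDSC replicate 3 and without WT Mo-MDSC replicate 3. That of Gbp3 was lost without a filter on low values, without a variance trend, without PMN-MDSC replicate 2 or 3 and without WT Mo-MDSC replicate 1 or 3. Igtp, an effector GTPase, was lower (38.1 ± 2.24 and 27.4 ± 1.84 FPKM, adjusted p = 0.00403), and Iigp1, another, had no call (8.08 ± 2.31 and 7.08 ± 1.48 FPKM, adjusted p = 0.577).

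PARP9 and DTX3L form a complex that ubiquitylates histones, and PARP14 is an ADP-ribosyltransferase next to them on chromosome 16. None of the 3 was called. In PMN- and WT Mo-MDSCs Parp9 was at 35.6 ± 1.64 and 33.5 ± 0.785 FPKM, Dtx3l at 32.0 ± 3.95 and 34.1 ± 2.32 FPKM, and Parp14 at 37.4 ± 2.32 and 44.2 ± 2.86 FPKM. Their log2 differences were -0.09, 0.09 and 0.24. Those of Parp9 and Dtx3l had 95% confidence intervals of -0.25 to 0.08 and -0.16 to 0.35. Parp14 had an adjusted p = 0.0566, and 0.0082 with the replicate block. It was also called with all 9 samples in 1 fit, with a common median and after quantile normalization (0.42, adjusted p = 0.00307). The sign of Parp9 turned to 0.06 after quantile normalization. The RefSeq gene table places Parp9 and Dtx3l in overlap (a gap of -558 bases), and whether reads were counted by strand is not given in the sources used here.

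Of the 5 remaining members, Rtp4 and Trim30a were lower in Mo-MDSCs and Xaf1 was higher. Rtp4, an inhibitor of flavivirus replication, had means of 108 ± 21.2 in PMN- and 41.2 ± 5.03 FPKM in WT Mo-MDSCs (log2 difference -1.37 ± 0.155, adjusted p = 6.08e-04). Trim30a, an inducible TRIM protein that restrains inflammatory signalling, had means of 133 ± 18.7 and 63.2 ± 7.47 FPKM (-1.08 ± 0.133, adjusted p = 9.29e-04). Xaf1, a promoter of apoptosis, had means of 10.9 ± 1.19 and 17.1 ± 2.29 FPKM (0.64 ± 0.128, adjusted p = 0.00724), a call lost with replicates 2 and 3 alone. Ifi35, at 37.8 ± 0.701 and 42.1 ± 2.35 FPKM, had no call (0.15, adjusted p = 0.135, with 0.0475 under the replicate block and 0.00669 after quantile normalization), nor did Ifi44, at 3.01 ± 1.18 and 3.22 ± 0.613 FPKM (0.16, adjusted p = 0.71).

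**Figure D4:**
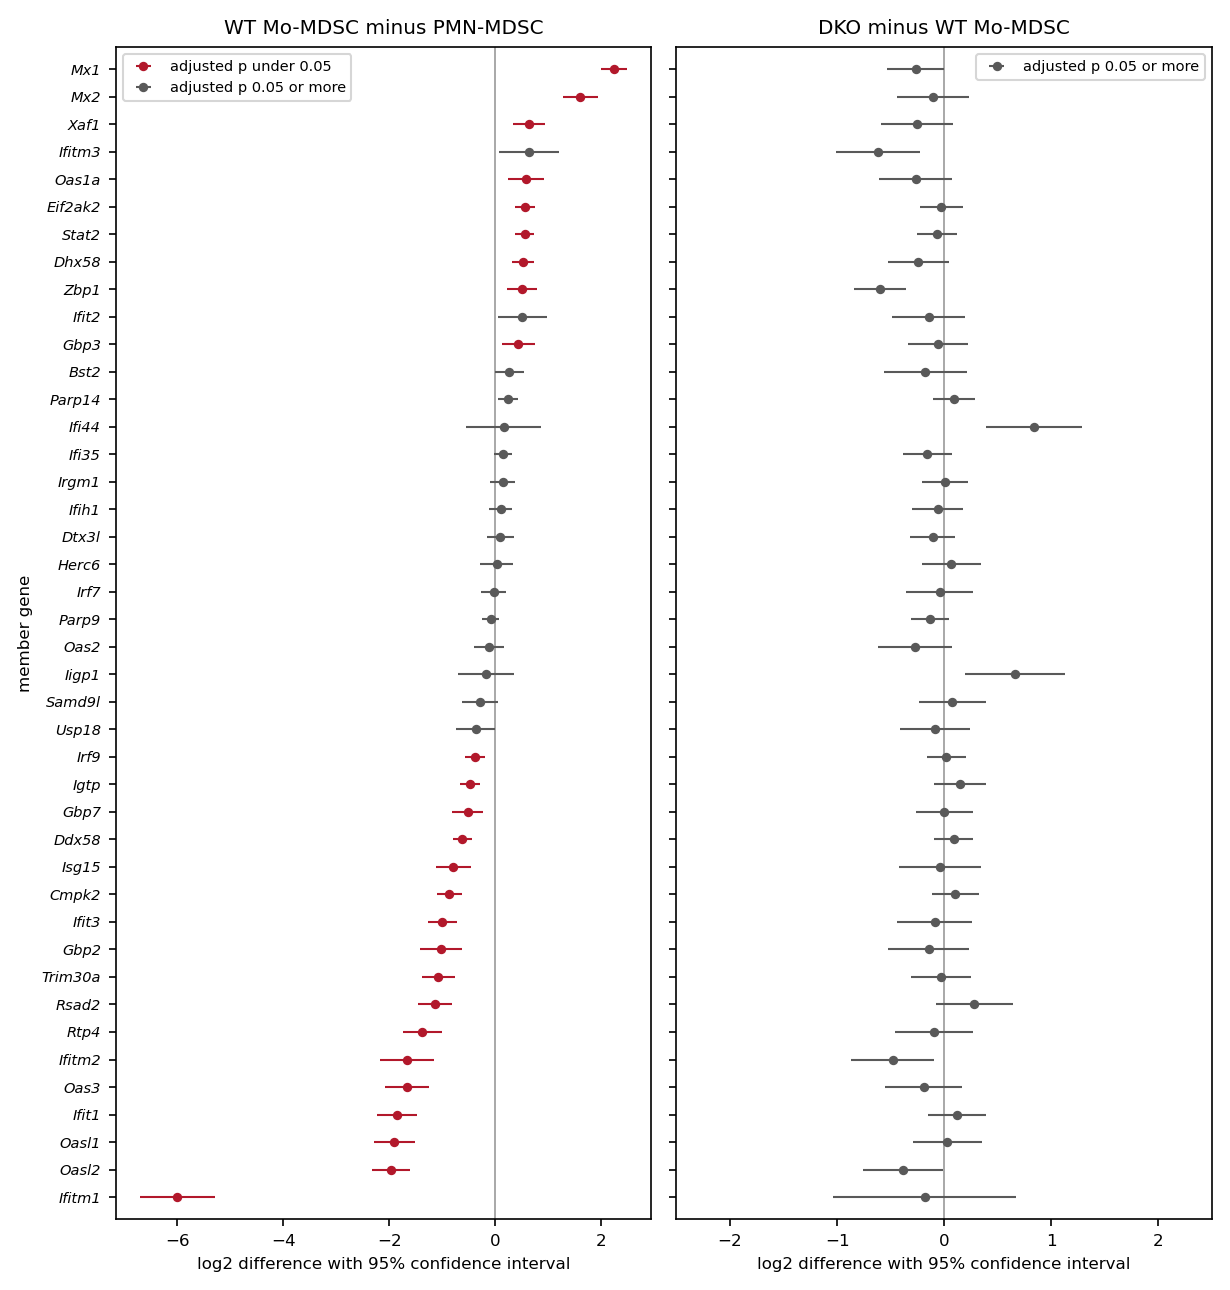
Log2 difference of each of the 42 members (points) with its 95% confidence interval (bars) in WT Mo- minus PMN-MDSCs (left) and DKO-labelled minus WT Mo-MDSCs (right, on a narrower axis), ordered by the left panel, with members at adjusted p under 0.05 in red. On the left 17 members are red below 0 and 9 above it, from -6.00 for Ifitm1 to 2.24 for Mx1. On the right no member is red, and Ifi44 at 0.84 and Ifitm3 at -0.62 are the outermost.

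The comparison of the samples labelled DKO with WT Mo-MDSCs asked whether loss of p16 and p21 goes with a different level of the programme. No member passed an adjusted p under 0.05 in either direction with limma over 11451 genes, of which 0.166% were called higher and 0.0873% lower. At an unadjusted p under 0.05, 2 members were higher (Ifi44 and Iigp1), beside 5.27% of all genes, and 5 were lower (Zbp1, Ifitm3, Ifitm2, Oasl2 and Mx1), beside 9.74% of all genes. In 2 members every DKO sample was above every WT sample, beside 7.96% of all genes, and in 4 every DKO sample was below, beside 12.9%. Leaving out 1 sample moved the count of 5 to between 2 (without replicate 3 of either group) and 9 (without DKO replicate 2), with 3 without replicate 1 of either group and 8 without WT replicate 2, and replicates 2 and 3 alone gave 1. The median log2 difference (DKO minus WT) was -0.08, beside -0.02 over all genes, and 38 of the 42 differences lay within 0.5 of 0. Without DKO replicate 3 the median was 0.0189, so its sign rests on that sample. The half-width of the 95% confidence interval was under 0.5 in 41 of 42 members, with a median of 0.31. Ifitm1 was the exception, with an interval from -1.04 to 0.67. These intervals are for single genes before adjustment. After adjustment larger differences also had no call, such as 0.84 for Ifi44 and -0.62 for Ifitm3.

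Zbp1 had the lowest p of all members in this comparison. Its values, given above, were 66.1 to 80.4 FPKM in WT Mo-MDSCs and 43.4 to 51.0 FPKM in the DKO samples, without overlap. The range of the DKO samples overlapped that of PMN-MDSCs (44.4 to 57.6 FPKM). Zbp1 was 1.52-fold lower in the DKO samples than in WT Mo-MDSCs (1.28 to 1.80, adjusted p = 0.0895). Mx1 was also lower in every DKO sample, by 1.203-fold (adjusted p = 0.329). Oasl2 overlapped between the groups and was 1.30-fold lower (1.01 to 1.69, adjusted p = 0.32), and Dhx58 differed by -0.24 ± 0.123 (adjusted p = 0.39).

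All 4 membrane restriction factors had a lower log2 level in the DKO samples, as did 28 of the 42 members in all. Ifitm3 was lower in every DKO than in any WT sample, by 1.53-fold (1.17 to 2.02, adjusted p = 0.199). Ifitm2 was 1.40-fold lower (1.07 to 1.83, adjusted p = 0.256), and DKO replicate 2 reached the lowest WT sample. Bst2 differed by -0.18 ± 0.167 and Ifitm1 by -0.18 ± 0.368. Leaving out 1 sample, these ranged from -0.29 to -0.0001 for Bst2 and from -0.62 to 0.046 for Ifitm1. The summed neutrophil markers were lower in each DKO sample (1967 to 4203 FPKM) than in any WT sample (4431 to 13953), and the summed monocyte markers likewise (1953 to 2154 against 2370 to 2663). Of the 7 neutrophil markers tested none was called in this comparison, and neither was any of the 8 monocyte markers. Their part in these differences was not tested.

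Ifi44 and Iigp1 stood on the other side. Ifi44, whose function is little known, was at 4.14, 3.11 and 1.79 FPKM in PMN-MDSCs, at 3.93, 2.81 and 2.94 FPKM in WT Mo-MDSCs, and at 6.88, 6.10 and 4.60 FPKM in the DKO samples. Iigp1 was at 10.7, 6.46 and 7.06 FPKM, at 8.75, 6.61 and 5.89 FPKM, and at 14.5, 9.43 and 10.05 FPKM in the same order. Both were higher in every DKO sample than in any WT Mo-MDSC sample, Ifi44 by 1.79-fold (1.31 to 2.44, adjusted p = 0.156) and Iigp1 by 1.58-fold (1.15 to 2.19, adjusted p = 0.221). Within each of the 3 groups replicate 1 was the highest for both genes. Both were among the less abundant members.

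The hallmark members were close between the genotypes. The log2 difference was -0.04 for Isg15 (95% confidence interval -0.42 to 0.34), -0.04 for Irf7 (-0.35 to 0.27), 0.02 for Irf9 (-0.16 to 0.20), -0.07 for Stat2 (-0.25 to 0.12) and 0.12 for Ifit1 (-0.15 to 0.39). Of these, Isg15, Irf7 and Irf9 changed sign under at least 1 alternative. The other members, by group mean in WT and DKO-labelled Mo-MDSCs, were likewise without a call. For the sensors, Oas1a was at 37.2 and 31.1 FPKM, Oas2 at 38.3 and 31.8, Oas3 at 31.8 and 27.9, Oasl1 at 10.5 and 10.7, Ddx58 at 26.5 and 28.2, Ifih1 at 19.4 and 18.6, and Eif2ak2 at 25.8 and 25.3 FPKM. Among the effectors, Ifit2 was at 13.8 and 12.4 FPKM, Ifit3 at 23.6 and 22.4, Usp18 at 15.1 and 14.1, Herc6 at 10.4 and 10.9, Mx2 at 6.82 and 6.37, Rsad2 at 29.5 and 35.8, Cmpk2 at 16.4 and 17.7, and Samd9l at 54.3 and 57.1 FPKM. None of these differences passed the test.

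For the GTPases, Gbp2 was at 34.3 and 31.0 FPKM, Gbp3 at 34.2 and 32.7, Gbp7 at 14.4 in both, Irgm1 at 54.3 and 54.5, and Igtp at 27.4 and 30.4 FPKM. Parp9 was at 33.5 and 30.6 FPKM and lower in every DKO sample (adjusted p = 0.449), beside Parp14 at 44.2 and 47.0 and Dtx3l at 34.1 and 31.6 FPKM. Ifi35 was at 42.1 and 37.7 FPKM, Xaf1 at 17.1 and 14.3, Trim30a at 63.2 and 61.7, and Rtp4 at 41.2 and 38.8 FPKM. The 2 comparisons share the WT Mo-MDSC samples, so a WT sample that is high or low moves a member's difference in both.

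The genes above the members in the pathway were given by a list of 52, of which 46 were found and 34 tested. No interferon gene was tested, because the 12 found, Ifnb1, Ifng and 10 others, were listed at 0 in most samples and reached at most 0.253 FPKM in any. The receptor chains of type I interferon were alike in all groups. Ifnar1 was at 23.2, 24.4 and 24.6 FPKM in PMN-MDSCs, at 23.9, 22.0 and 23.6 FPKM in WT Mo-MDSCs, and at 23.9, 23.2 and 24.0 FPKM in the DKO samples. Ifnar2 had means of 103 ± 5.86, 101 ± 5.58 and 98.7 ± 13.04 FPKM. The log2 differences of WT Mo- from PMN-MDSCs were -0.06 (95% confidence interval -0.22 to 0.11) for Ifnar1 and -0.02 (-0.21 to 0.16) for Ifnar2.

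Below the receptors the subsets differed. Of the 34 upstream genes tested, 11 (32.4%) were higher and 12 (35.3%) lower in WT Mo- than in PMN-MDSCs, beside 18.5% and 20.6% of all genes. The receptor-bound kinases parted, with Tyk2 at 18.04 ± 0.869 FPKM in PMN- and 39.1 ± 1.75 in WT Mo-MDSCs (2.16-fold higher, adjusted p = 6.20e-05), and Jak1 at 139.7 ± 9.82 and 74.9 ± 2.94 FPKM (1.86-fold lower, adjusted p = 1.99e-04). Jak2 was lower as well, by 1.79-fold (adjusted p = 8.10e-04). The chains of the interferon-γ receptor parted too, Ifngr1 being 1.52-fold higher (adjusted p = 0.00222) and Ifngr2 1.28-fold lower (adjusted p = 0.0499).

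Among the regulators, Irf1, the early interferon-γ target, was 1.76-fold lower in WT Mo-MDSCs (161 ± 12.3 in PMN- and 91.3 ± 4.55 FPKM in WT Mo-MDSCs, adjusted p = 4.21e-04). Irf5 (1.79-fold, adjusted p = 3.01e-04) and Irf8 (1.37-fold, adjusted p = 0.00638), the latter a monocyte lineage factor, were higher. Several genes of the sensing arm that leads to interferon production were higher in WT Mo-MDSCs, with Ikbke 3.78-fold, Ticam2 2.90-fold, Tmem173 (STING) 2.30-fold and Tlr7 1.86-fold higher. The DNA nuclease Trex1 was 2.06-fold higher, and all of these had an adjusted p of 0.00603 or less. Others of the arm were lower, with the adaptor Myd88 2.01-fold (adjusted p = 0.0015) and Tlr4 1.66-fold lower (adjusted p = 0.0157). Both suppressors of cytokine signalling were lower, Socs1 by 1.77-fold (adjusted p = 0.0025) and Socs3, which mainly restrains gp130 and G-CSF receptor signals, by 6.01-fold (adjusted p = 3.77e-05).

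In the samples labelled DKO, Socs3 was the single upstream gene of the 34 with a call. It was at 32.5, 38.2 and 35.7 FPKM in WT Mo-MDSCs and at 14.6, 20.1 and 15.3 FPKM in the DKO samples, without overlap (2.14-fold lower, 1.73 to 2.65, adjusted p = 0.0278). With replicates 2 and 3 alone none of the 11451 genes was called lower, so this call was lost there. In PMN-MDSCs Socs3 was far higher, at 222, 170.2 and 257 FPKM. The summed neutrophil markers, given above, were lower in the DKO samples, although Mmp8 among them was higher in every DKO sample. The part of neutrophil RNA in the Socs3 level was not tested. Irf1 differed by 0.07, Irf8 by 0.09, Jak1 by 0.03 and Socs1 by 0.12 on the log2 scale, all without a call. At an unadjusted p under 0.05, 2 upstream genes (5.88%) were higher and 8 (23.5%) lower, beside 5.27% and 9.74% of all genes. Among the lower were Tmem173 (1.30-fold, adjusted p = 0.128), Trex1 (1.42-fold, adjusted p = 0.202), Myd88 (1.504-fold, adjusted p = 0.16) and Tyk2 (1.15-fold, adjusted p = 0.288). Tlr4, also of the sensing arm, was among the higher (1.36-fold, adjusted p = 0.282).

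**Figure D5:**
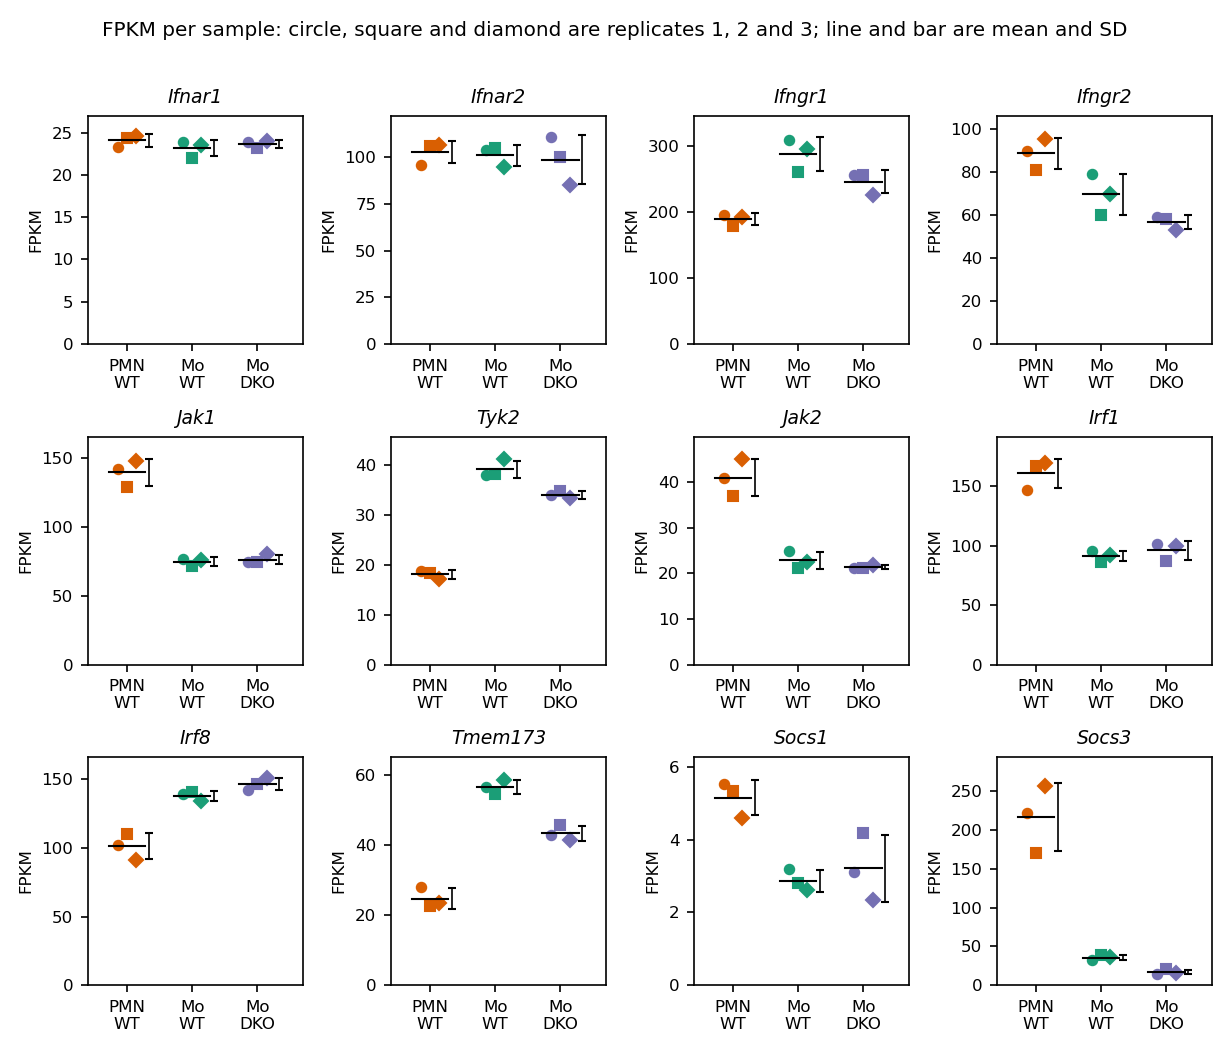
FPKM in each sample (vertical axis, from 0) of 12 genes upstream of the members, with circles, squares and diamonds for replicates 1, 2 and 3, a line at the group mean and a bar of 1 SD. Ifnar1 and Ifnar2 overlap between the groups, Tyk2 and Tmem173 lie higher in the Mo-MDSC samples, and Socs3 lies highest in PMN-MDSCs (mean 216 FPKM) and lowest in the DKO samples (mean 16.7).

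A wider list of 86 other interferon-stimulated genes, of which 70 were found and 66 tested, also split in both directions. In WT Mo- against PMN-MDSCs 22 (33.3%) were higher and 15 (22.7%) lower, beside 18.5% and 20.6% of all genes, with a median log2 difference of 0.15. The higher ones with the largest differences were led by the PYHIN family of nuclear DNA-binding proteins, with Mnda 6.02-fold, Ifi205 3.98-fold, Ifi203 2.02-fold and Mndal 1.99-fold higher, beside the necroptosis effector Mlkl at 2.02-fold. The lower ones were led by Trim30b (7.69-fold), the helicases Ddx60 (4.03-fold) and Mov10 (4.02-fold), the Trim30a neighbours Trim30d (2.46-fold) and Trim12c (2.13-fold), Casp4 (2.11-fold) and the exonuclease Isg20 (2.07-fold). All of these had an adjusted p of 0.0125 or less. The TRIM genes named are near copies of each other and of Trim30a. In the samples labelled DKO none of the 66 was called, and at an unadjusted p under 0.05, 7 (10.6%) were higher and 9 (13.6%) lower, beside 5.27% and 9.74% of all genes.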

How the data were processed

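The authors made stranded mRNA libraries, sequenced single-end reads, mapped them to mm10 with TopHat2 2.0.13, Bowtie2 2.2.3 and SAMtools 0.1.19, and deposited FPKM values from Cuffnorm 2.2.1 for 23284 gene symbols per sample. The annotation and strand setting are not given in the sources used here. The 42 members and all lists were chosen with earlier results of these data known.

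Log2(FPKM + 0.1) values of genes reaching 1 FPKM in no fewer than 3 of 6 samples were fitted with limma 3.58.1 (lmFit, eBayes with a trend, two-sided, Benjamini-Hochberg over all genes tested) in R 4.3.3, for each comparison alone. Fold changes are on this scale and understate those of low genes. The fit was tested on simulated data. Gene positions and promoters come from RefSeq tables of GRCm38.p6 (the build of mm10), matched by symbol. Motifs and summaries were computed in Python 3.11.15 (pandas 2.3.3, numpy 2.4.6).

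FPKM values carry no read depth. From the steps between low values the relative depth ranged from 0.809 to 1.31, though few low genes lay on a step (389 of 1955 in PMN-MDSC replicate 1), so no reads were recovered and no count test was run.

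In WT Mo- and PMN-MDSCs samples with the same replicate number deviated together from their group means (correlations over 11491 genes of 0.294, 0.483 and 0.200 for replicates 1 to 3). The labels state no pairing, but the library numbers run on within a replicate number across the 3 groups (237 to 239, 326 to 328 and 329 to 331). What such samples shared is not given. The value with the replicate number as a block is given where it changed a call. In the other comparison the samples with the same replicate number did not all deviate together.

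All members are named with group means. Values per sample were given for the 8 members with the largest differences at adjusted p under 0.05 in each comparison (or lowest p), and for a fixed set of hallmark members. From the 2 wider lists the largest differences at adjusted p under 0.05, up to 12 per comparison, and fixed receptors and regulators are named, and a few upstream genes with unadjusted p under 0.05 were added after their values were seen. Of the genes that meet this rule, 1 is not reported here.

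Alternatives were pseudocounts of 1 and 0.01, no filter, a filter in all 6 samples, all 9 samples in 1 fit, quantile normalization, a common median, no variance trend, the replicate block, replicates 2 and 3 only, and leaving out each sample.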

Additional observations from a re-analysis of the deposited data

How the results depend on the processing

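The direction of all 26 called members in WT Mo- against PMN-MDSCs held under every alternative tried. Quantile normalization moved most: 15 members were higher and 16 lower, the members' median became 0.0245 and the difference of their mean log2 level -0.223, and the sign turned for Herc6 (-0.00219), Irf7 (0.32), Oas2 (0.058) and Parp9 (0.063). It also raised the share of higher calls among all genes called from 47.2% to 55.5%. With the samples labelled DKO it turned the sign of Eif2ak2 (0.012), Irf7 (0.093), Isg15 (0.021) and Trim30a (0.034), and replicates 2 and 3 alone turned Gbp7 (-0.024), Isg15 (0.077) and Usp18 (0.040). The cause was not tested.

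No setting gave a DKO call among the members. At an unadjusted p under 0.05 the number of lower members was 3 with all 9 samples in 1 fit, 3 after quantile normalization, 3 without a variance trend, 3 with the replicate block and 1 with replicates 2 and 3 alone. Over all genes, 19 higher and 10 lower calls became 6 to 25 and 0 to 26.

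In WT Mo- against PMN-MDSCs the replicate block changed no call beyond those given with the results. In the other comparison the samples with the same replicate number also had consecutive library numbers, with correlations of 0.348, 0.226 and -0.0700 for replicates 1 to 3. Under the block 3 members were higher and 3 lower at an unadjusted p under 0.05 there, and none after adjustment.

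Leaving out each sample in turn, the counts in WT Mo- against PMN-MDSCs ranged from 6 to 11 higher and 16 to 18 lower (9 to 14 and 17 to 19 unadjusted), the median from -0.13 to -0.046 and the mean from -0.43 to -0.30. The count of 6 was without WT Mo-MDSC replicate 3. For DKO the unadjusted counts ranged from 2 to 3 higher and 2 to 9 lower, the median from -0.15 to 0.019 and the mean from -0.13 to 0.014. The lower count was 2 without replicate 3 of either group, 3 without replicate 1 of either, 8 without WT Mo-MDSC replicate 2 and 9 without DKO replicate 2. Log2 differences that changed sign ranged, in WT Mo- against PMN-MDSCs, as Herc6 -0.063 to 0.12, Ifi44 -0.16 to 0.42, Iigp1 -0.33 to 0.048 and Irf7 -0.11 to 0.043, and for DKO as Eif2ak2 -0.078 to 0.011, Gbp3 -0.15 to 0.035, Gbp7 -0.10 to 0.073, Herc6 -0.024 to 0.15, Ifih1 -0.11 to 0.012, Ifit3 -0.18 to 0.068, Ifitm1 -0.62 to 0.046, Irf7 -0.12 to 0.11, Irf9 -0.024 to 0.048, Irgm1 -0.062 to 0.061, Isg15 -0.24 to 0.076, Mx2 -0.19 to 0.026, Oasl1 -0.10 to 0.10, Rtp4 -0.20 to 0.066, Samd9l -0.039 to 0.17, Trim30a -0.13 to 0.047 and Usp18 -0.17 to 0.064. With 3 samples a group and FPKM alone, differences smaller than the confidence intervals given could not be seen. For DKO, larger ones up to 0.84 (Ifi44) also had no call after adjustment.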
